A study of Mus musculus with 9 samples.

Results

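The genes described are the mouse voltage-gated sodium and calcium channels and the potassium channels, with the auxiliary subunits whose symbols follow the same families, in tumors of 3 mouse glioblastoma models. They were chosen by gene symbol alone: every protein-coding gene named Scn, Cacna1, Cacna2d, Cacnb, Cacng or Kcn with its number, leaving out Kcnj8 and Kcnj13. This gave 130 genes of 21547 protein-coding genes in the count files, in 13 families, and 114 of the 130 passed the filter on low counts that left 17947 genes for testing. RNA was sequenced from bulk brain tumors, described by the submitters as primary glioma tissue on a mixed strain background, with 3 libraries for each of Synapsin-cre, NG2-creERTM and Nestin-creERT2. Synapsin-cre places the recombinase under a promoter active in neurons, NG2-creERTM under the promoter of Cspg4 (NG2), which is active in oligodendrocyte precursors and also in pericytes, and Nestin-creERT2 under a promoter of neural stem and progenitor cells; the ERTM and ERT2 forms act after tamoxifen. The alleles that drove the tumors, the ages of the mice and the times of collection are not given in the sources used here, and no sample is labelled as normal tissue. Nothing in the labels ties the 3 libraries of a model to separate mice, so the p-values measure the spread between these libraries, which may be partly technical.

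Voltage-gated channels open when the membrane depolarizes: sodium channels carry the upstroke of the action potential, calcium channels let in calcium that triggers transmitter release and signalling, and potassium channels repolarize the cell. Pore-forming alpha subunits work with auxiliary subunits that set their surface number and kinetics. Inward rectifier and two-pore-domain potassium channels hold the resting potential; in the brain the first group also lets astrocytes clear potassium, and calcium-activated potassium channels couple calcium signals to the membrane potential. Most of these genes are used by neurons, and some are used by glia, oligodendrocyte precursors or Schwann cells, so a bulk tumor reads the tumor cells together with any brain tissue in the sample.

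The libraries held 23557398 counts in genes in Synapsin-cre replicate 1, the shallowest, and a median of 34742585 over the 9. The common biological coefficient of variation between libraries of a model, as edgeR estimates it, was 0.612 with all 9 and 0.503 without that library. Levels are scaled to 1000000 counts in genes (CPM) with factors from the trimmed mean of M values (TMM). Synapsin-cre replicate 1 stood apart. It was the highest of the 9 libraries for 73 of the 114 tested channel genes (64.0%), and for 25.0% of all tested genes; the next library, Nestin-creERT2 replicate 3, was highest for 13 channel genes. A list of 12 pan-neuronal markers, none at 0 in all 9 libraries, summed to 5379, 1155 and 644 CPM in Synapsin-cre tumors, 536, 747 and 901 CPM in NG2-creERTM tumors and 2150, 1707 and 1968 CPM in Nestin-creERT2 tumors. A list of 8 GABAergic neuron markers summed to 3863, 69.2 and 12.02 CPM in Synapsin-cre tumors, 21.4, 42.0 and 39.5 CPM in NG2-creERTM tumors and 279.5, 186 and 229 CPM in Nestin-creERT2 tumors. A further 10 proliferation genes summed to 159 CPM in Synapsin-cre replicate 1 and to between 1256 and 2829 CPM in the other 8 libraries. The part of these markers in the channel results was not tested, and the edgeR counts and overlaps of the Synapsin-cre comparisons are given with and without replicate 1.

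Summed over the 130 channel genes, Synapsin-cre tumors held 10662, 3067 and 1925 CPM, NG2-creERTM tumors 3078, 2120 and 2841 CPM, and Nestin-creERT2 tumors 3869, 3460 and 4574 CPM. The 3 Nestin-creERT2 libraries lay above the 3 NG2-creERTM libraries without overlap, while the Synapsin-cre libraries spanned both. In bulk tissue, fewer cells of a type and less RNA per cell cannot be told apart. The families differed in how far Synapsin-cre replicate 1 pulled away. The modulatory Kv subunits, which form no channel alone, summed to 319, 10.9 and 9.17 CPM in Synapsin-cre tumors, while the calcium channel gamma family, whose members include AMPA receptor partners, summed to 737, 535 and 318 CPM there.

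**Figure D1:**
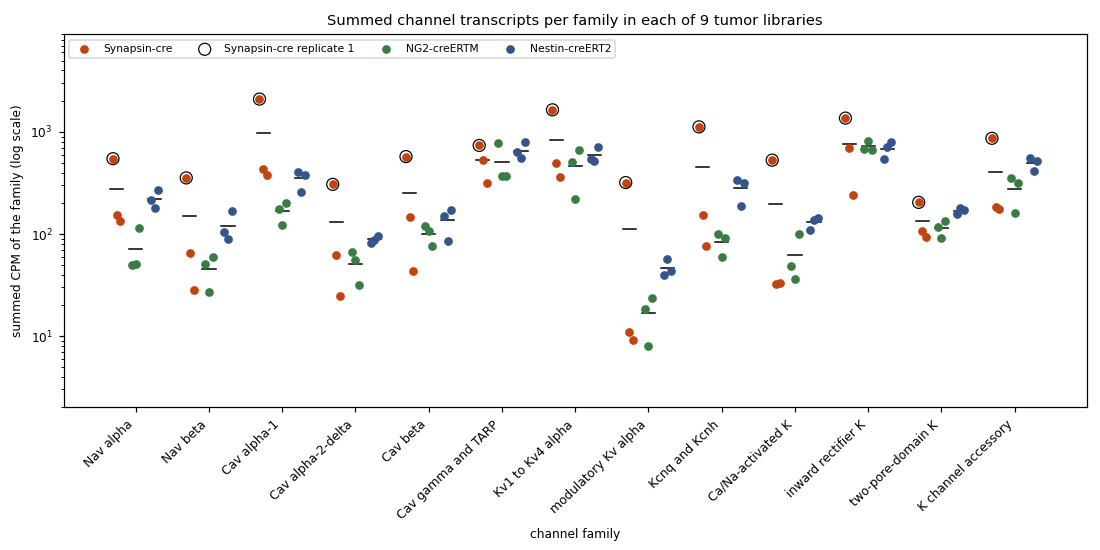
Each point is the summed CPM (log scale) of 1 of the 13 channel families in 1 library, with short lines at the mean of 3; Synapsin-cre is drawn left, NG2-creERTM in the middle and Nestin-creERT2 right. The ringed point, Synapsin-cre replicate 1, is the highest Synapsin-cre point in each family; the NG2-creERTM mean is below the Nestin-creERT2 mean in every family except the inward rectifiers, at 720 against 681 CPM.

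Per kilobase of exon, none of the 4 most abundant channel genes was a voltage-gated pore. Kcnj10, the inward rectifier Kir4.1 of astrocytes, averaged 107.5 CPM per kb over the 9 libraries. It was followed by Cacng7 at 90.0 and Cacng4 at 65.9 CPM per kb, both transmembrane AMPA receptor regulatory proteins (TARPs), and by Kcnip3 at 47.1 CPM per kb, a calcium-binding protein that binds Kv4 channels and is also known as the transcriptional repressor DREAM. The highest sodium channel alpha subunit, Scn8a, averaged 4.21 CPM per kb. Among calcium channel pores Cacna1h, the T-type channel Cav3.2, led with 11.3 CPM per kb.

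Kcnj10 lies on chromosome 1 at 172341210 to 172374085 (GRCm38, plus strand). It had 780, 609 and 202 CPM in Synapsin-cre tumors, 611, 763 and 615 CPM in NG2-creERTM tumors and 435, 574 and 643 CPM in Nestin-creERT2 tumors. With all 9 libraries the 3 models overlapped. Without Synapsin-cre replicate 1, Kcnj10 lay lower in Synapsin-cre than in every NG2-creERTM library, as did 13.0% of all genes. Its lowest library, Synapsin-cre replicate 3, was also lowest for a list of 10 astrocyte markers, at 544 CPM. The other 8 libraries had sums between 1639 and 8316 CPM. Across the other 2 models the list and Kcnj10 ran differently. The list was lower in every NG2-creERTM library (2935, 4088 and 1639 CPM) than in every Nestin-creERT2 library (4447, 6358 and 5301 CPM). Mean Kcnj10 was 663 CPM in NG2-creERTM and 551 CPM in Nestin-creERT2 tumors. A list of 8 oligodendrocyte and central myelin markers summed to 2119, 3621 and 6206 CPM in NG2-creERTM tumors. In Nestin-creERT2 tumors these summed to 1107, 595 and 1537 CPM, and in Synapsin-cre tumors to 2118, 4279 and 1765 CPM. The part of either list in the Kcnj10 level was not tested. The Kcnj10 log2 fold change of NG2-creERTM over Nestin-creERT2 was 0.27 ± 0.47 (SE, edgeR quasi-likelihood, adjusted p = 0.875, 9 libraries), which leaves room for a difference in either direction. Cacng7 was the most even of the leading genes, with 288, 182 and 176 CPM in Synapsin-cre tumors, 254, 174 and 185 CPM in NG2-creERTM tumors and 196, 194 and 329 CPM in Nestin-creERT2 tumors. With all 9 libraries its groups overlapped. Without Synapsin-cre replicate 1, Cacng7 lay lower in Synapsin-cre than in every Nestin-creERT2 library, as did 21.0% of all genes. Cacng4 had 65.8, 282 and 104 CPM in Synapsin-cre tumors, 516, 166 and 132 CPM in NG2-creERTM tumors and 179, 260 and 416 CPM in Nestin-creERT2 tumors. Its 2 highest libraries were NG2-creERTM replicate 1 and Nestin-creERT2 replicate 3, and its lowest was Synapsin-cre replicate 1. The same libraries had the highest sums of 7 oligodendrocyte precursor markers, 6931 and 7947 CPM, and the lowest, 637 CPM. A list of 7 fibroblast and meningeal markers, which shares Pdgfra with the first, had the same highest (2707 and 2039 CPM) and lowest (274 CPM) libraries. The part of either list in the Cacng4 level was not tested.

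The promoters of 4 genes are shown. Kcnip3 was lower in both other models than in Nestin-creERT2. Kcnd3 was lower than there in NG2-creERTM and in Synapsin-cre replicates 2 and 3 (81.5 and 34.3 CPM), but not in replicate 1 (198 CPM). Kcnn4 ran the other way, and Kcnj10 was abundant in every model. Each promoter is a RefSeq window of 300 bases (build GRCm38.p6), 250 before to 50 after a transcription start. It is written 5′ to 3′ on the gene's strand, and capitals mark a match to any motif searched. The windows lie at chr2:127522045-127522344 (minus strand), chr3:105451640-105451939, chr7:24370013-24370312 and chr1:172340960-172341259 (plus strand). The Kcnd3 window is set on a start 440 bases from the annotated start of the gene.
Kcnip3: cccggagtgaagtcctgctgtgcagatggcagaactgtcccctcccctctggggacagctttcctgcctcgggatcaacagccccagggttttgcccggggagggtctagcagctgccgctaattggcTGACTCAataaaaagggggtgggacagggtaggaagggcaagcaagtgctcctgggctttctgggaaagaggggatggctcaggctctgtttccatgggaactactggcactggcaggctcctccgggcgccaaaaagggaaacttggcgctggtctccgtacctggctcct
Kcnd3: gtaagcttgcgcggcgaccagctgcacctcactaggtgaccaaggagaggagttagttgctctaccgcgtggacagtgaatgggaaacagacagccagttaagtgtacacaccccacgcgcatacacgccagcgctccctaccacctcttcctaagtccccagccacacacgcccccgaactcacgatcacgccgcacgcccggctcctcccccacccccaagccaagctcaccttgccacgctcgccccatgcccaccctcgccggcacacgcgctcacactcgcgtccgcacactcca
Kcnn4: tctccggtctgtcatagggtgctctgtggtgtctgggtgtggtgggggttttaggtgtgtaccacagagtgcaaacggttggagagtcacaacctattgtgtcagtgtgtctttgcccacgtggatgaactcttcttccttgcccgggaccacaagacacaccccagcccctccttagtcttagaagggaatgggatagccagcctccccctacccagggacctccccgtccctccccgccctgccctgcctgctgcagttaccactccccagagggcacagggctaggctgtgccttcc
Kcnj10: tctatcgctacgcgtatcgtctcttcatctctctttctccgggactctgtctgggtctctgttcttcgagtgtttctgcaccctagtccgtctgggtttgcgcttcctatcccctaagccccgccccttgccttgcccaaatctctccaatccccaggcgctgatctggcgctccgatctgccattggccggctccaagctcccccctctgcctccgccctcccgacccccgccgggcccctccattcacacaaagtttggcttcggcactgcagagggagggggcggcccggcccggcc
The motifs were the AP-1 site (TGANTCA), the left part of the RE1 element bound by the neuronal gene repressor REST (TTCAGCACC) and the TATA box (TATAAA), on both strands; no motif contains another. The RefSeq table held 131 windows of 95 of the 130 channel genes. AP-1 matched 5 channel windows (3.82%, against 7.81% of all 32851 windows), the TATA box 6 (4.58%, against 13.6%) and the left part of RE1 1 (0.763%, against 0.371%), in Kcnh6. Of the 4 printed, Kcnip3 holds an AP-1 match; the letters of these motifs are not in the other 3 windows. CpG dinucleotides number 8 in the Kcnip3 window, 25 in Kcnd3, 6 in Kcnn4 and 21 in Kcnj10, with a median of 9 over channel windows and 7 over all windows.

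NG2-creERTM tumors held lower levels of most channel genes than Nestin-creERT2 tumors. Of the 114 tested, 94 had a negative log2 fold change, with a median of -1.37, while the median over all 17947 genes was 0.02. The 3 NG2-creERTM libraries lay below the 3 Nestin-creERT2 libraries for 53 channel genes (46.5%, against 14.2% of all genes) and above them for 4 (3.51%, against 11.0%). In edgeR's quasi-likelihood fit of all 9 libraries, 0 channel genes and 0 genes of any kind passed an adjusted p of 0.05 (Benjamini-Hochberg over all genes tested), DESeq2 called 7 (3.47% of all genes), limma voom with quality weights 2 (0.892%), and 27 channel genes had an unadjusted p under 0.05 (23.7%, against 11.3% of all genes), 23 lower (5.73% of all genes) and 4 higher (5.53%). With the 6 libraries of these 2 models alone, edgeR called 8 of 111 channel genes lower and 0 higher (7.21% lower, against 1.07% of all genes lower and 0.316% higher). The 3-model fit without Synapsin-cre replicate 1 called 4 lower and 0 higher, against 0.498% and 0.173% of all genes; the 4 are among the 8. Beside this, the 12 pan-neuronal markers were all negative in the 6-library fit, with a median log2 fold change of -2.55 and 5 of them called lower. Of the astrocyte markers 8 of 10 were negative (median -1.03, 1 called lower). All 9 tested Schwann cell and neural crest markers were positive (median 6.31, 5 called higher), as were 6 of 7 fibroblast and meningeal markers (median 3.47, 2 called higher). The part of these lists in the channel result was not tested.

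**Figure D2:**
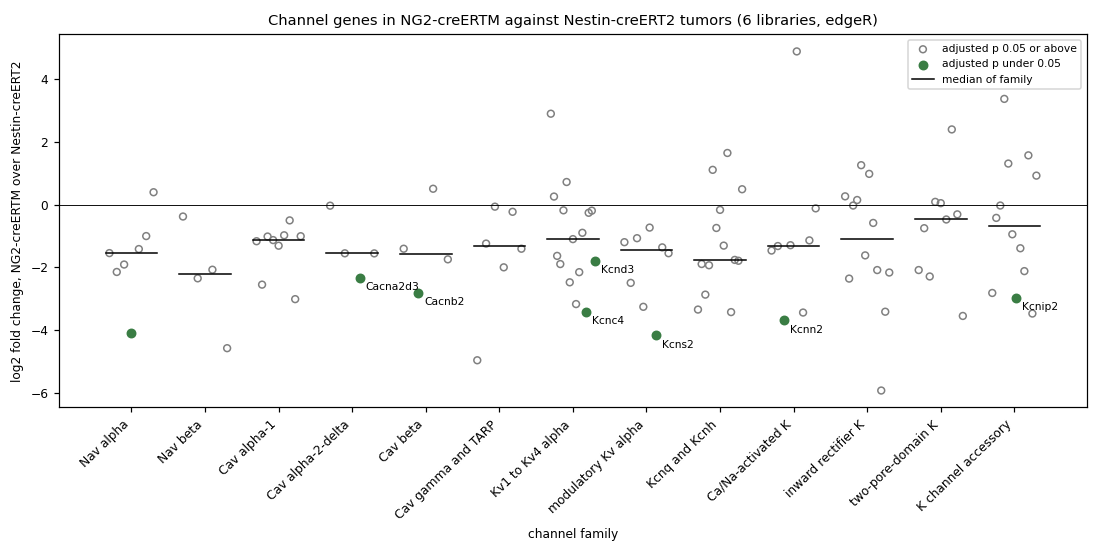
Each circle is the log2 fold change of 1 channel gene in NG2-creERTM over Nestin-creERT2 tumors, from the edgeR fit of these 6 libraries, by family; filled circles passed an adjusted p of 0.05 and black lines are family medians. All 13 medians lie below 0, from -2.21 for the sodium channel beta subunits to -0.47 for the two-pore-domain channels, and the 8 filled circles lie below 0.

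The 8 genes that fell in the 6-library fit were spread over 7 families, and 7 of them are described here. Cacnb2, the calcium channel beta-2 subunit that carries the pore to the membrane, had 1.41, 2.85 and 1.26 CPM in NG2-creERTM tumors and 13.5, 9.66 and 15.4 CPM in Nestin-creERT2 tumors, without overlap (-2.81 ± 0.49, adjusted p = 0.0445 by edgeR). Cacna2d3, an alpha-2-delta subunit, had 3.35, 4.21 and 3.77 CPM in NG2-creERTM tumors and 22.8, 11.3 and 23.0 CPM in Nestin-creERT2 tumors. These groups did not overlap, and the log2 fold change was -2.33 ± 0.41 (edgeR adjusted p = 0.0448).

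A further 5 of these genes were potassium channel genes. Kcnd3, the A-type channel Kv4.3, had 40.6, 50.7 and 67.7 CPM in NG2-creERTM tumors and 176, 233 and 144 CPM in Nestin-creERT2 tumors. The groups were apart, at -1.80 ± 0.30 (edgeR adjusted p = 0.0445), the smallest log2 change of the 8 and the gene with the highest level among them. Kcnip2, a KChIP subunit that binds Kv4 channels such as Kcnd3, had 1.41, 2.01 and 1.02 CPM in NG2-creERTM tumors and 9.04, 9.86 and 15.9 CPM in Nestin-creERT2 tumors (-2.97 ± 0.48, edgeR adjusted p = 0.0436). Its groups did not overlap either. Kcnc4, the fast Kv3.4 channel, had 0.329, 0.941 and 1.39 CPM in NG2-creERTM tumors and 6.84, 12.8 and 8.78 CPM in Nestin-creERT2 tumors (-3.42 ± 0.64, edgeR adjusted p = 0.0487). The silent subunit Kcns2, which modifies Kv2 channels, had 0.21, 0.105 and 0.496 CPM in NG2-creERTM tumors and 5.23, 6.09 and 3.5 CPM in Nestin-creERT2 tumors, a level near the filter (-4.17 ± 0.71, edgeR adjusted p = 0.0445). Kcnn2, the small-conductance calcium-activated channel SK2, had 1.89, 6.22 and 2.75 CPM in NG2-creERTM tumors and 18.8, 60.1 and 60.5 CPM in Nestin-creERT2 tumors. Its Nestin-creERT2 libraries were all higher, with a log2 fold change of -3.69 ± 0.62 (edgeR adjusted p = 0.0445).

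Other channel genes were also lower without passing the threshold. Scn2a, the sodium channel Nav1.2 of unmyelinated axons, had 5.48, 5.91 and 27.7 CPM in NG2-creERTM tumors and 67.3, 51.1 and 55.2 CPM in Nestin-creERT2 tumors. For Scn2a NG2-creERTM replicate 3 was the highest of its model, and that library also had the highest pan-neuronal sum of the 3, 901 CPM. The part of those markers in the Scn2a level was not tested. Kcnip3 (chromosome 2, 127456498 to 127522094, minus strand), whose promoter is printed above, had 104, 74.1 and 169 CPM in NG2-creERTM tumors and 330, 236 and 346 CPM in Nestin-creERT2 tumors, with a log2 fold change of -1.39 ± 0.36 (9 libraries, edgeR adjusted p = 0.297; 6 libraries, adjusted p = 0.0839).

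In 4 channel genes every NG2-creERTM library lay above every Nestin-creERT2 library: Kcnn4, Kcnk5, Kcnmb4 and Kcnh5. Kcnn4, the intermediate-conductance calcium-activated channel KCa3.1 (chromosome 7, 24370263 to 24386690, plus strand), had 14.3, 4.57 and 72.5 CPM in NG2-creERTM tumors and 1.17, 1.52 and 0.405 CPM in Nestin-creERT2 tumors. Its log2 fold change was 4.88 ± 1.04 in the 9-library fit (edgeR adjusted p = 0.244) and 4.88 ± 1.09 in the 6-library fit (adjusted p = 0.0633). DESeq2 called it higher (adjusted p = 1.8e-05). NG2-creERTM replicate 3 was its highest library by far, and without that library the value was 3.19 ± 0.77 (edgeR adjusted p = 0.494). Kcnk5, the acid-sensitive two-pore channel TASK-2, had 15.3, 6.27 and 11.6 CPM in NG2-creERTM tumors and 2.91, 0.969 and 2.43 CPM in Nestin-creERT2 tumors (2.40 ± 0.58 in the 6-library fit, edgeR adjusted p = 0.0757). Kcnmb4, the beta-4 subunit of the BK channel, differed less, at 40.0, 30.8 and 46.5 CPM in NG2-creERTM tumors and 12.6, 24.0 and 25.3 CPM in Nestin-creERT2 tumors (0.92 ± 0.34, adjusted p = 0.191). Its pore subunit Kcnma1 had 17.9, 2.98 and 7.71 CPM in NG2-creERTM tumors and 42.0, 15.3 and 21.6 CPM in Nestin-creERT2 tumors, so pore and subunit lay on opposite sides and the pore's groups overlapped. Kcna1, the axonal channel Kv1.1, had 38.8, 7.76 and 139 CPM in NG2-creERTM tumors and 9.66, 3.93 and 11.4 CPM in Nestin-creERT2 tumors, with overlap. NG2-creERTM replicate 3, highest for Kcnn4 and Kcna1, also had the highest sum of 10 Schwann cell and neural crest markers, 4038 CPM against 96.3 to 1920 CPM in the other 8 libraries; the part of those markers was not tested.

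**Figure D3:**
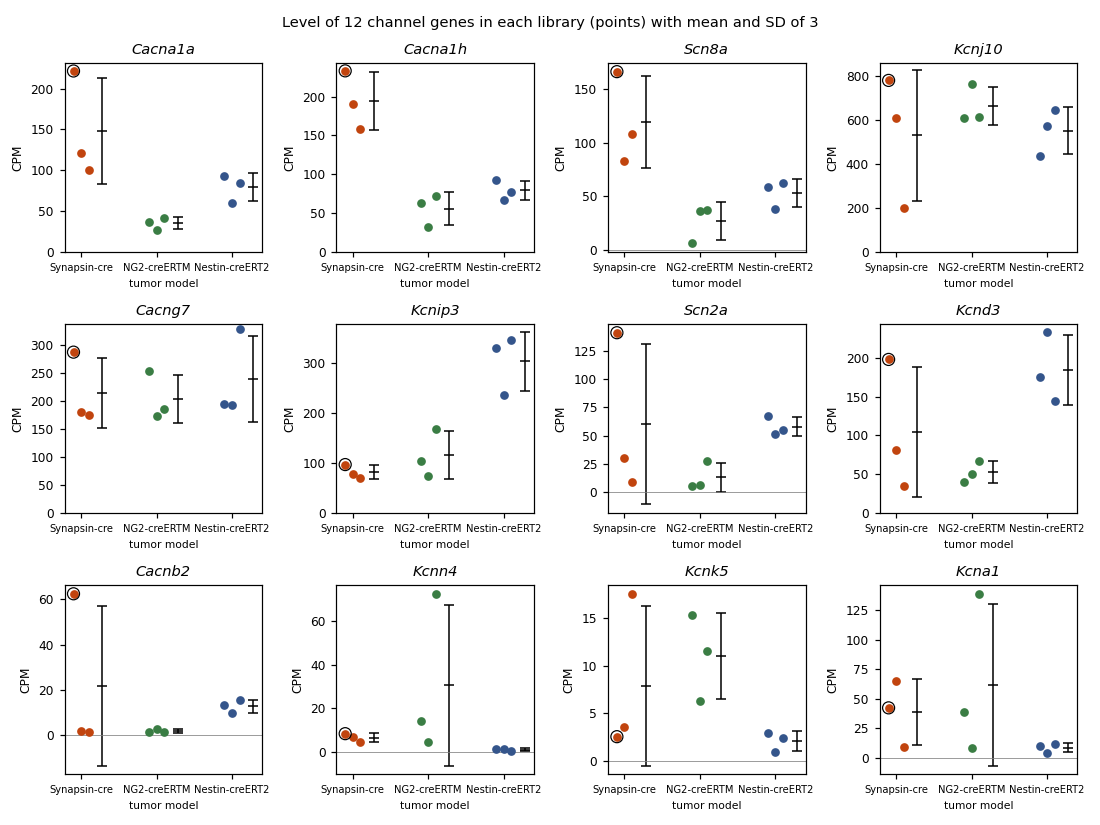
Each panel gives the CPM of 1 channel gene in the 9 libraries, with Synapsin-cre left, NG2-creERTM in the middle and Nestin-creERT2 right, and the mean with SD of the 3 libraries beside the points; Synapsin-cre replicate 1 is ringed. Cacna1a and Cacna1h have all 3 Synapsin-cre points above the other models, Kcnip3 has its Nestin-creERT2 points highest, and Scn2a and Cacnb2 are high in Synapsin-cre through the ringed point.

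How channel genes in Synapsin-cre tumors stood against Nestin-creERT2 tumors turned on Synapsin-cre replicate 1. With all 9 libraries 73 of 114 channel genes had a positive log2 fold change and the median was 0.50, while the median over all genes was 0.13. This direction also turned on the method: from the same 9 libraries limma voom gave 37 positive and 77 negative, with a median of -0.61, and limma voom with quality weights 32 and 82, with a median of -1.08. In edgeR without that library 21 were positive, 93 were negative and the median was -1.36, against 0.01 over all genes. Of the 114, 52 were positive with it and negative without it, 41 were negative both ways and 21 were positive both ways. In edgeR's fit of 9 libraries 0 channel genes and 0 genes of any kind were called, and with these 2 models alone 0 channel genes and 0.0291% of all genes; DESeq2 called 4 channel genes (2.77% of all genes), limma voom with quality weights 5 (1.48%), and 14 had an unadjusted p under 0.05 (12.3%, against 10.8% of all genes). Without replicate 1 edgeR called 8 channel genes lower and 0 higher (7.02% lower, against 1.07% of all genes lower and 0.406% higher). Dropping the NG2-creERTM libraries as well gave 14 lower and 0 higher (12.3% lower, against 1.71% of all genes lower and 0.708% higher), and all 8 were among the 14. In the edgeR fit without replicate 1 that kept the NG2-creERTM libraries, 11 of the 12 pan-neuronal markers were negative. Their median log2 fold change was -1.39, and 1 was called lower. Other lists moved too: 9 of 10 astrocyte markers were negative (median -2.58, 1 called lower), as were 9 of 9 microglia and macrophage markers (median -2.14, 4 called lower), while 9 of 9 Schwann cell and neural crest markers were positive (median 3.47, 3 called higher) and 6 of 7 fibroblast and meningeal markers (median 1.10, 2 called higher). The part of these lists in the channel result was not tested.

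**Figure D4:**
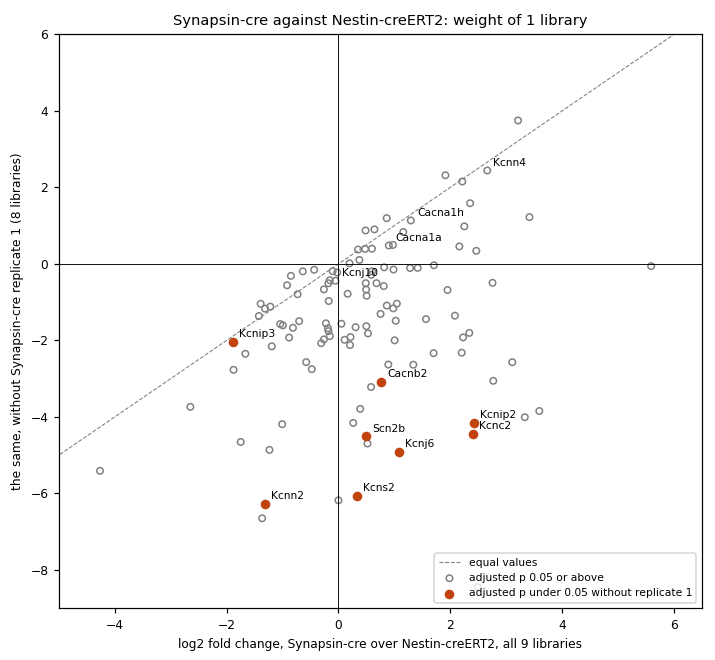
Each circle is 1 of 114 channel genes: the x axis is its log2 fold change in Synapsin-cre over Nestin-creERT2 tumors from all 9 libraries, and the y axis is the same value without Synapsin-cre replicate 1. The 52 circles at the lower right are positive with that library and negative without it; filled circles are the 8 genes past an adjusted p of 0.05 without it.

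Kcnip3 was the gene of these 8 whose direction and groups did not depend on that library. It had 97.0, 78.3 and 69.6 CPM in Synapsin-cre tumors and 330, 236 and 346 CPM in Nestin-creERT2 tumors. The groups were apart, with a log2 fold change of -1.90 ± 0.36 from 9 libraries (edgeR adjusted p = 0.219) and -2.04 ± 0.41 without replicate 1 (adjusted p = 0.0485). Kcnn2 was also negative both ways, but its groups overlapped with all libraries: it had 55.1, 0.221 and 0.992 CPM in Synapsin-cre tumors against 18.8, 60.1 and 60.5 CPM in Nestin-creERT2 tumors, at -1.31 ± 1.48 from 9 libraries and -6.27 ± 0.99 without replicate 1 (edgeR adjusted p = 0.0326).

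The other 6 were high in Synapsin-cre replicate 1 and near 0 in the other 2 Synapsin-cre libraries. Scn2b, a sodium channel beta subunit, had 76.8, 0.579 and 1.05 CPM in Synapsin-cre tumors and 16.3, 11.9 and 27.2 CPM in Nestin-creERT2 tumors. Its log2 fold change was 0.50 ± 1.39 with replicate 1 and -4.50 ± 0.64 without it (edgeR adjusted p = 0.0268). Kcnc2, the Kv3.2 channel of fast-spiking interneurons, had 109, 0.386 and 0.24 CPM in Synapsin-cre tumors and 6.17, 6.37 and 8.17 CPM in Nestin-creERT2 tumors (2.41 ± 1.71 with replicate 1, -4.45 ± 0.71 without it, edgeR adjusted p = 0.0326). Kcnj6, the G-protein-gated inward rectifier GIRK2, had 22.3, 0.11 and 0.12 CPM in Synapsin-cre tumors and 5.46, 1.94 and 3.26 CPM in Nestin-creERT2 tumors (1.08 ± 1.56 with, -4.91 ± 0.86 without, edgeR adjusted p = 0.0395). In each of these genes the sign of the edgeR fold change turned on a single library. Limma voom gave each of these genes a negative value even with all 9 libraries. Kcnip2 had 185, 0.689 and 0.601 CPM in Synapsin-cre tumors and the Nestin-creERT2 levels given above, with -4.16 ± 0.60 without replicate 1 (edgeR adjusted p = 0.0274). Cacnb2 had 62.5, 1.74 and 1.29 CPM in Synapsin-cre tumors (-3.09 ± 0.58 without replicate 1, edgeR adjusted p = 0.0443), and Kcns2 had 18.4, 0.11 and 0.03 CPM there (-6.06 ± 1.01, adjusted p = 0.0371).

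In 6 channel genes every Synapsin-cre library lay above every Nestin-creERT2 library (5.26%, against 8.44% of all genes): Cacna1h, Cacna1a, Scn8a, Kcnh5, Kcnj12 and Kcnn4. In 5 every Synapsin-cre library lay below (4.39%, against 6.29%), among them Kcnip3, Kcnj16, Kcnk10 and Kcns1. Without replicate 1, the remaining 2 Synapsin-cre libraries lay above every Nestin-creERT2 library for 9 channel genes (7.89%, against 19.2% of all genes) and below for 62 (54.4%, against 21.0%). The share that lay lower was thus below that of all genes with replicate 1 and above it without. Cacna1h (chromosome 17, 25374285 to 25433783, minus strand) had 233, 191 and 159 CPM in Synapsin-cre tumors and 92.7, 67.5 and 77.7 CPM in Nestin-creERT2 tumors. Its log2 fold change was 1.29 ± 0.34 (edgeR adjusted p = 0.318) and 1.14 ± 0.36 without replicate 1 (adjusted p = 0.124), so its size held without that library while the threshold was not passed either way. Kcnn4 had 8.35, 6.95 and 4.36 CPM in Synapsin-cre tumors, above its 3 Nestin-creERT2 values, at 2.66 ± 0.95 (edgeR adjusted p = 0.391).

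Synapsin-cre tumors had higher fitted levels than NG2-creERTM tumors for 94 of 114 channel genes, with a median log2 fold change of 1.75 against 0.08 over all genes; without Synapsin-cre replicate 1 the counts were 48 positive and 66 negative and the median was -0.18. Limma voom with quality weights, from all 9 libraries, gave 62 positive and 52 negative with a median of 0.068. EdgeR called 0 channel genes with or without that library (0% and 0.00541% of all genes), DESeq2 called 9 with it (2.49% of all genes), and 44 had an unadjusted p under 0.05 with it (38.6%, against 12.8% of all genes), of which 43 were higher. Without it 9 were higher and 7 lower at such a p, against 5.30% and 6.72% of all genes. The groups did not overlap, with Synapsin-cre higher, for 16 channel genes (14.0%, against 8.03% of all genes) and, with Synapsin-cre lower, for 0 (5.74%). Without replicate 1 these counts were 18 higher (15.8%, against 13.5% of all genes) and 12 lower (10.5%, against 13.0%), so the count of 0 rested on that library. The 12 pan-neuronal markers were all positive in the 9-library fit, with a median log2 fold change of 2.89, and 7 of them were positive without replicate 1, with a median of 0.12; their part was not tested.

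The calcium channel pores led this comparison. Cacna1a, the P/Q-type channel Cav2.1 of nerve terminals (chromosome 8, 84388440 to 84640246, plus strand), had 222, 121 and 101 CPM in Synapsin-cre tumors and 37.0, 27.4 and 41.4 CPM in NG2-creERTM tumors. The log2 fold change was 2.07 ± 0.37 with all 9 libraries (edgeR adjusted p = 0.357) and 1.65 ± 0.31 without Synapsin-cre replicate 1 (adjusted p = 0.243), so the other 2 libraries carried most of it. Nestin-creERT2 tumors lay between, at 93.0, 60.0 and 84.6 CPM, and overlapped neither model. Cacna1h had 63.3, 32.5 and 71.9 CPM in NG2-creERTM tumors, below all its Synapsin-cre values, at 1.80 ± 0.35 (edgeR adjusted p = 0.357) and 1.64 ± 0.36 without replicate 1 (adjusted p = 0.243). Scn8a, the sodium channel Nav1.6 of nodes and axon initial segments (chromosome 15, 100869858 to 101045938, plus strand), had 166, 82.8 and 108 CPM in Synapsin-cre tumors and 6.29, 36.6 and 37.2 CPM in NG2-creERTM tumors. Its groups were apart, at 2.16 ± 0.61 (edgeR adjusted p = 0.357).

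Tested for any difference among the 3 models, 0 channel genes were called by edgeR with 9 libraries, and 35 had an unadjusted p under 0.05 (30.7%, against 13.1% of all genes). DESeq2 called 10 (4.84% of all genes), limma voom with quality weights 1 (0.524%), and edgeR without Synapsin-cre replicate 1 called 12 (10.5%, against 1.87%), among them Cacnb2, Cacng2, Kcnab1, Kcnc2, Kcnip2, Kcnip3, Kcnj6, Kcnk1, Kcnn2, Kcns2 and Scn2b.

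Cacna1i and Cacna1e, a further pair of calcium channel pores, were high in Synapsin-cre through replicate 1. Cacna1i, the T-type channel Cav3.3, had 338, 3.36 and 1.08 CPM in Synapsin-cre tumors, 0.449, 1.2 and 3.25 CPM in NG2-creERTM tumors and 16.7, 9.83 and 13.1 CPM in Nestin-creERT2 tumors. Cacna1e, the R-type channel Cav2.3, had 301, 17.9 and 1.71 CPM in Synapsin-cre tumors, 8.54, 7.55 and 14.4 CPM in NG2-creERTM tumors and 25.0, 14.1 and 36.7 CPM in Nestin-creERT2 tumors. In the other 2 Synapsin-cre libraries Cacna1i lay below every Nestin-creERT2 library, and Cacna1e lay within their range in replicate 2 and below it in replicate 3. The L-type channel Cacna1c had 354, 45.3 and 62.4 CPM in Synapsin-cre tumors, 34.8, 28.3 and 22.3 CPM in NG2-creERTM tumors and 50.8, 39.7 and 82.5 CPM in Nestin-creERT2 tumors. All its Synapsin-cre libraries lay above its NG2-creERTM libraries, at 2.44 ± 0.74 with replicate 1 (edgeR adjusted p = 0.357) and 0.91 ± 0.37 without it (adjusted p = 0.386). Cacna1b, the N-type channel Cav2.2 of nerve terminals, had 98.9, 18.7 and 31.7 CPM in Synapsin-cre tumors, 1.02, 3.5 and 13.6 CPM in NG2-creERTM tumors and 44.4, 29.96 and 32.1 CPM in Nestin-creERT2 tumors. Its Synapsin-cre libraries were likewise all above its NG2-creERTM libraries, at 3.04 ± 0.93 with replicate 1 and 2.05 ± 0.82 without it (edgeR adjusted p = 0.357 and 0.386).

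**Figure D5:**
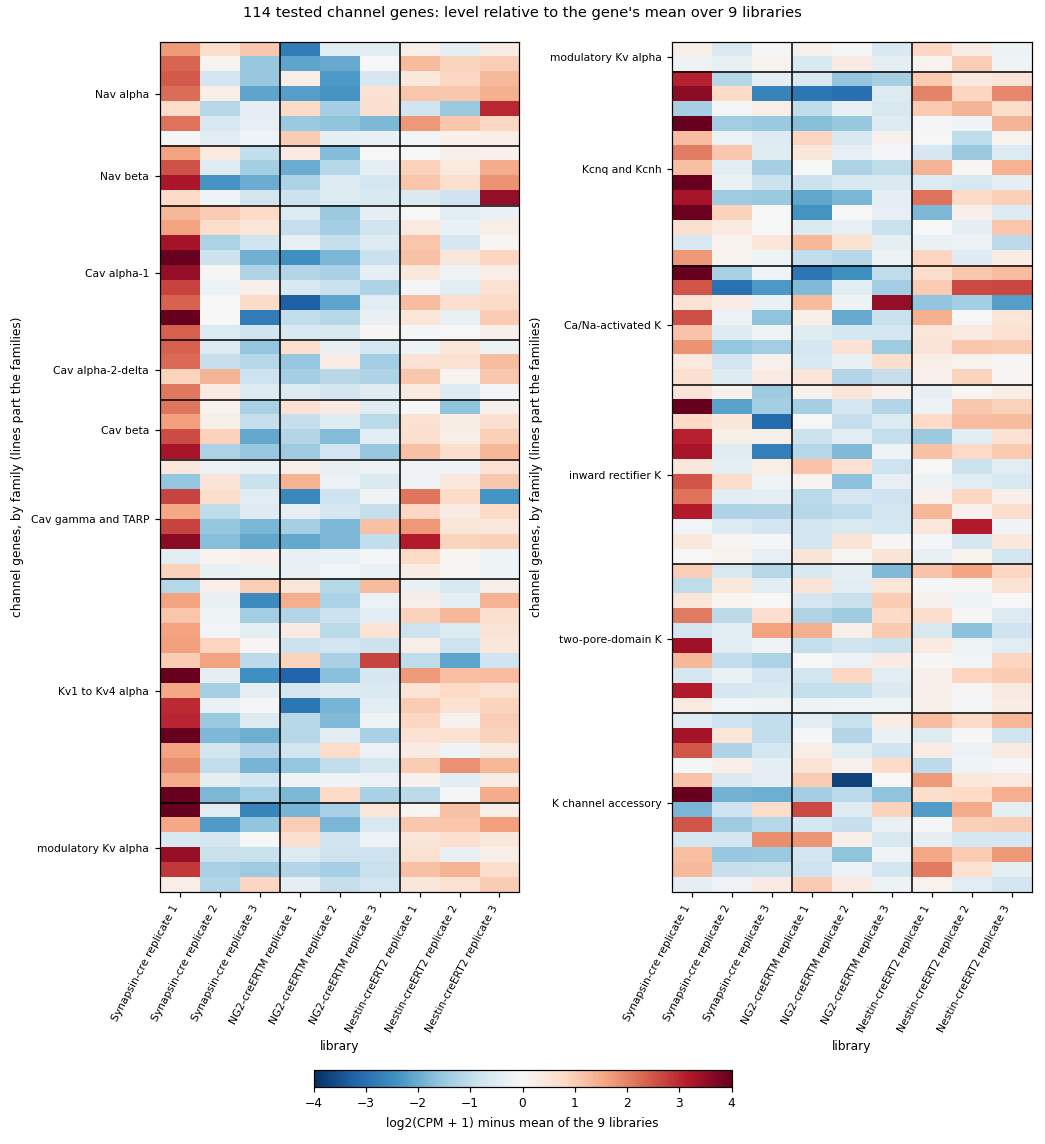
Rows are the 114 tested channel genes by family and columns the 9 libraries, with Synapsin-cre left, NG2-creERTM in the middle and Nestin-creERT2 right in each panel; the families are named at the left and color is log2(CPM + 1) minus the gene's mean over the 9 libraries, and the scale stops at 4 in both directions. The first column, Synapsin-cre replicate 1, is the highest for 73 rows; the Nestin-creERT2 columns are mostly red and the NG2-creERTM columns mostly blue.

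Some channel genes were high in a single library outside Synapsin-cre. Scn7a, an atypical sodium channel found in glia and Schwann cells, had 7.2, 1.24 and 2.76 CPM in Synapsin-cre tumors, 7.64, 0.941 and 6.62 CPM in NG2-creERTM tumors and 1.82, 0.775 and 38.5 CPM in Nestin-creERT2 tumors. Scn4b, a sodium channel beta subunit, had 22.9 CPM in the same Nestin-creERT2 replicate 3, and its other 8 libraries lay between 0.15 and 2.61 CPM. Kcnj5, a G-protein-gated inward rectifier, had 14.6 CPM in Nestin-creERT2 replicate 2 and between 0.03 and 1.35 CPM elsewhere. Its other Nestin-creERT2 libraries, at 1.35 and 0.571 CPM, also lay above every NG2-creERTM library (0.03, 0.157 and 0.0744 CPM). In all 3 genes the model mean was set by that library: for Scn4b it was 7.84 ± 13.0 CPM in Nestin-creERT2 tumors (SD, n = 3).

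Channel and partner genes outside the symbol rule had medians nearer 0. That list held 59 genes, among them HCN, TRP, chloride and calcium-release channels, ankyrins, the REST repressor and its partners, and 57 were tested. In NG2-creERTM against Nestin-creERT2 tumors 38 of the 57 were negative, with a median of -0.50, and 1 passed the test in the 6-library fit: Lgi1, a secreted protein bound to neuronal channel complexes, fell, with 0.869, 1.99 and 1.79 CPM in NG2-creERTM tumors against 26.2, 22.1 and 15.6 CPM in Nestin-creERT2 tumors (-3.79 ± 0.48, edgeR adjusted p = 0.0354; 1.07% of all genes were called lower in that fit). In Synapsin-cre against Nestin-creERT2 tumors, 13 of 57 were negative with all 9 libraries, with a median of 0.40 and 0 called, and 31 were negative without replicate 1, with a median of -0.16. In the fit without it Lgi1, Cntnap2 and Hvcn1 were called lower (1.07% of all genes), and Lgi4 and Piezo2 higher (0.406%). Rest, the repressor of many neuronal genes, had 15.2, 58.8 and 52.4 CPM in Synapsin-cre tumors, 54.3, 53.4 and 43.4 CPM in NG2-creERTM tumors and 39.5, 36.1 and 32.5 CPM in Nestin-creERT2 tumors. Its lowest library was Synapsin-cre replicate 1, and the 3 NG2-creERTM libraries lay above the 3 Nestin-creERT2 libraries, as for 11.0% of all genes. The part of Rest in the channel results was not tested.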

How the data were processed

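Total RNA of bulk mouse tumors was sequenced in 9 libraries, 3 per Cre line. The deposited files hold raw read counts per gene in 1 unstranded and 2 stranded columns; the submitters' processing notes name STAR, HTSeq and mm10, without versions or roles, and the annotation release is not given in the sources used here. The fourth column was used, since the opposite strand held 3.25 to 3.64% of the counts in genes; reads outside genes (17.9 to 27.3%) stayed out. Identifiers were matched to GENCODE vM21 (46005 of 46517). Exons of 3 channel genes (Cacng8, Kcnab2, Kcnk4) overlap another gene on the same strand, so their counts are uncertain.

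EdgeR 4.0.16 (R 4.3.3) fitted quasi-likelihood models to all 9 libraries with TMM factors, filterByExpr by model and Benjamini-Hochberg adjustment over all genes; a gene was called at an adjusted p under 0.05, and SE is the fold change over the square root of F. Alternatives were other size factors and filters, limma 3.58.1, DESeq2 1.42.0, unstranded counts, leaving out each library, and fits of 2 models alone. The edgeR fit was tested on simulated counts. Replicate numbers follow accession order and pair nothing. The channel genes, marker lists and tests were chosen with earlier results of these data known. Named genes were those called in a comparison, the 4 smallest p in each direction at a mean log2 CPM of at least 1, the highest gene per kb of each family, and a fixed panel. Cacna1b, Cacna1e, Cacna1i, Cacng2, Kcnc4, Kcne2, Kcnj5, Kcnj6, Kcnj12, Kcnk15 and the genes of the list of partners were named after their values were seen. A few genes that this rule names are not reported here. Tables and figures used Python 3.11.15, pandas 2.3.3 and matplotlib 3.10.9.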

Additional observations from a re-analysis of the deposited data

How the results depend on the processing

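Other size factors, other filters and unstranded counts left 0 channel genes called in every comparison, as did limma voom. For NG2-creERTM over Nestin-creERT2 the number called was 7 with DESeq2, 2 with limma voom with quality weights, 4 without Synapsin-cre replicate 1 and 8 with only the 2 models compared; leaving out each library in turn gave 0 to 4, and medians of -1.54 to -1.28. For Synapsin-cre over Nestin-creERT2 it was 4 with DESeq2, 5 with quality weights, 8 without replicate 1 and 14 with only the 2 models compared and without replicate 1 (0 to 8 leaving out each library). The median there was -0.61 with limma voom, -1.08 with quality weights, and -1.36 both without replicate 1 and with only the 2 models compared and without replicate 1; leaving out each library gave -1.36 to 0.74. For Synapsin-cre over NG2-creERTM DESeq2 called 9; the median was 0.068 with quality weights, -0.18 without replicate 1 and -0.19 with only the 2 models compared and without it, with -0.18 to 2.08 over the libraries left out and 0 called in each. Among the 3 models 10 were called with DESeq2, 1 with quality weights and 12 without replicate 1 (0 to 12 leaving out each library).

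In Synapsin-cre over Nestin-creERT2, 52 of 114 channel genes were positive with all 9 libraries and negative without replicate 1 by edgeR. Of these, 6 were among the 8 genes called without it. Their values are given for limma voom, then quality weights, then without replicate 1, then only the 2 models compared without it. Scn2b was at -2.46, -4.12, -4.50 and -4.50, and Kcnip2 at -1.63, -3.42, -4.16 and -4.16. Kcnc2 was at -1.83, -3.62, -4.45 and -4.44, and Kcns2 at -3.57, -5.07, -6.06 and -6.05. Kcnj6 was at -2.39, -4.07, -4.91 and -4.91, and Cacnb2 at -1.44, -2.53, -3.09 and -3.08. Leaving out each library in turn gave ranges up to 0.98 for Scn2b, 2.91 for Kcnip2, 2.89 for Kcnc2, 0.81 for Kcns2, 1.56 for Kcnj6 and 1.23 for Cacnb2, each lowest without replicate 1. The cause of the reversals was not tested beyond leaving out that library. No paired analysis was possible because replicate numbers follow accession order and mark no shared animal. With 3 libraries per model, genes at a few CPM, such as Kcns2, rest on few counts and their fold changes are the least precise.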

Other observations

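The 16 channel genes that did not pass the filter on low counts were Cacna1f, Scn4a, Scn10a, Scn11a, Kcna7, Kcna10, Kcng3, Kcnv2, Kcnj1, Kcne1, Kcne2, Kcnmb3, Kcnk7, Kcnk15, Kcnk16 and Kcnk18. Among them are sodium channels of muscle (Scn4a) and of pain-sensing neurons (Scn10a, Scn11a), and 14 of the 16 stayed at or below 1.24 CPM in every library. Kcnk15, a two-pore-domain channel, had 10.3, 0 and 0 CPM in Synapsin-cre tumors and 0 CPM in each NG2-creERTM library. It had 0, 0.0277 and 0 CPM in Nestin-creERT2 tumors, so its counts lie almost wholly in Synapsin-cre replicate 1. Kcne2, a potassium channel subunit abundant in choroid plexus, had 0.133, 0.11 and 0.03 CPM in Synapsin-cre tumors, 0, 0.0523 and 0.0496 CPM in NG2-creERTM tumors and 6.28, 0 and 0.0238 CPM in Nestin-creERT2 tumors. Its highest library, Nestin-creERT2 replicate 1, had 7937 CPM summed over 6 choroid plexus markers, against 108 to 503 CPM in the other 8 libraries; the part of those markers was not tested.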
